A study of Rattus norvegicus with 58 samples.

Results

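Livers of rats given the 3 lowest doses of 4-methylcyclohexanemethanol (MCHM), a cyclic alcohol used in washing coal, were compared as 1 group with livers of control rats. The comparison took the 17 liver arrays of those doses from the 58 arrays of the study: 12 arrays at 0.1, 1 and 10 mg/kg, 4 at each dose, against 5 arrays at 0 mg/kg. All genes that the array annotation gives by a single symbol were eligible, 14217 in number, and 11275 of them passed the filter on dim probe sets and were tested. The rats were male Harlan Sprague-Dawley animals dosed by gavage, with a time of 5 days, and the controls received 0 mg/kg. Each array was hybridised with labelled RNA of a whole piece of liver, so every value is an average over the cell types of the organ. The study also has 12 liver arrays at 100, 300 and 500 mg/kg and 29 kidney arrays, used here only to set the low doses against. The sources used here give neither the rats' age or vehicle nor the hour at which a liver was taken or any processing batch. The replicates are named as biological replicates.

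Values are log2 RMA values, in which a difference of 1 is a factor of 2 in signal. Probe sets differ in brightness for reasons other than RNA amount, so each gene was compared only with itself. The tissue label held: 10 of 11 measured hepatocyte markers, among them the plasma proteins Alb and Ttr and the urea cycle enzyme Cps1, were higher on every one of the 17 liver arrays than on any of the 29 kidney arrays. The exception was the transcription factor Hnf4a, which kidney tubules also express, and all 13 measured tubule markers were lower on every liver array than on any kidney array. The 17 arrays correlated pairwise at 0.985 to 0.993, and none of 6 array quality measures differed between low dose and control arrays at an exact permutation p under 0.05 (lowest p = 0.12). The precision is limited by the number of arrays.

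The liver takes up foreign alcohols from the portal blood, oxidises them or couples them to glucuronic acid, and its drug-sensing receptors CAR and PXR raise the enzymes for this work. The same cells make bile acids from cholesterol and secrete both into bile. Many of these genes follow a daily rhythm set by a clock in which the activators Bmal1 and Clock drive the repressors Nr1d1 and Nr1d2 and the output factors Dbp and Tef.

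A single gene, Bcar3, passed the adjusted test in the low dose livers. Bcar3, an adaptor protein that binds the scaffold Bcar1 (p130Cas) in adhesion signalling, rose from a mean of 6.98 ± 0.22 (SD, n = 5) to 7.61 ± 0.19 (SD, n = 12). It was the only gene of 11275 with an adjusted p under 0.05 in limma's moderated test, which is 0.00887% of the genes tested. No gene fell. At an unadjusted limma p under 0.05 there were 758 genes, where 564 would be reached by chance if no gene differed. The low doses were higher for 400 of them (3.55% of the genes tested) and lower for 358 (3.18%), and after quantile normalization within liver this split was 348 against 457. Of all genes, 50.9% lay above 0, the median difference was 0.0019, and the median size of a difference was 0.059.

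**Figure D1:**
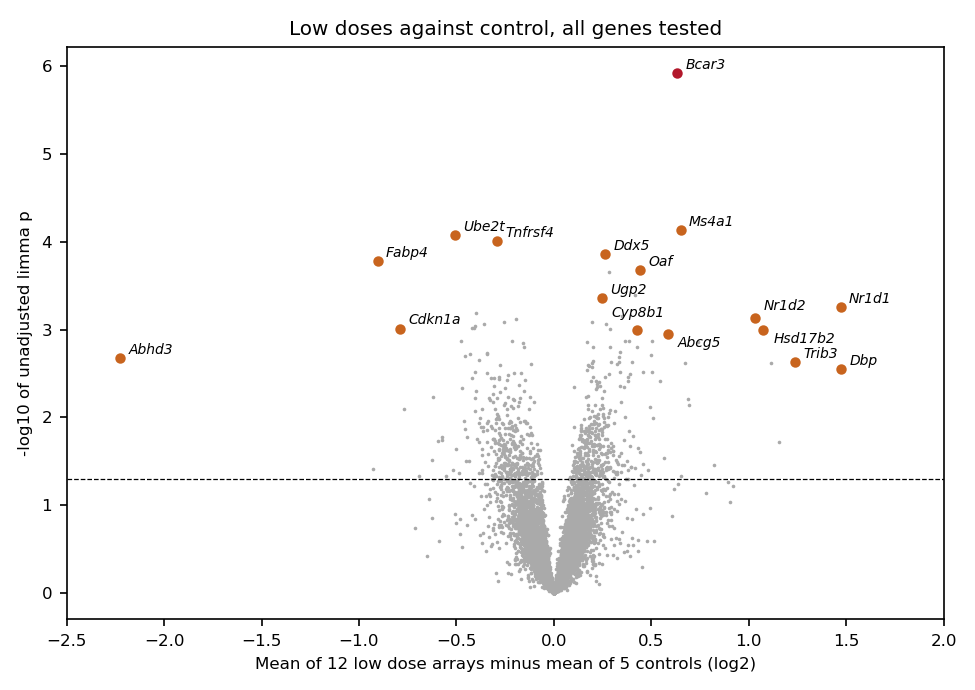
Each point is 1 of the 11275 genes: across, the mean of the 12 low dose arrays minus the mean of the 5 controls (log2), and upward, -log10 of the unadjusted limma p, with the dashed line at a p of 0.05. Bcar3, in red at 0.63, is the only gene past the adjusted threshold, and the genes in orange are those named in the text with larger differences or small p that did not pass.

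Bcar3 lies at chr2:213209907-213323305 in the RefSeq annotation of build GRCr8 (gene 310838), and 1 probe set measured it. The 5 control livers gave 6.75, 7.01, 6.93, 6.89 and 7.33. At 0.1 mg/kg the 4 livers gave 7.54, 7.91, 7.56 and 7.37, at 1 mg/kg 7.45, 7.52, 7.54 and 7.77, and at 10 mg/kg 7.76, 7.59, 7.41 and 7.92. All 12 low dose livers were above the highest control, control replicate 5, and the lowest of them, 0.1 mg/kg replicate 4, was above it by a small margin. The difference was 0.63 (95% interval 0.42 to 0.84, SE 0.10), a factor of 1.55, with an adjusted limma p of 0.0135. Taken dose by dose it was 0.62, 0.59 and 0.69 with an SE of 0.13 each, and no single dose passed (limma adjusted p = 0.574, 0.351 and 0.126). Leaving out control replicate 1, 2, 3 or 4 took the adjusted limma p of Bcar3 to 0.176, 0.0612, 0.0991 or 0.116, while the difference stayed between 0.57 and 0.72. The call was also lost in a fit of the 17 arrays alone (limma adjusted p = 0.0707) and without the 10 mg/kg group (0.0801).

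**Figure D2:**
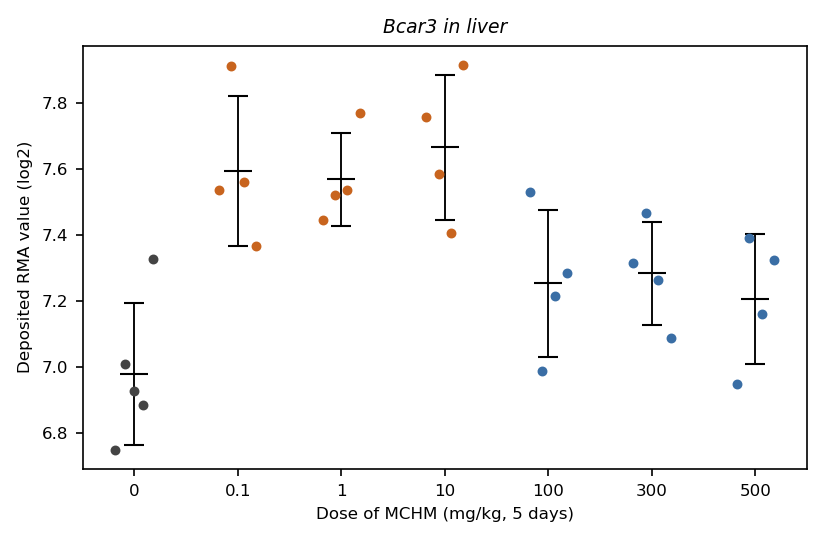
Deposited RMA value of Bcar3 (log2) on each of the 29 liver arrays by dose of MCHM in mg/kg, with the mean and SD of each dose group. Control arrays (black) lie at 6.75 to 7.33, the 12 low dose arrays (orange) at 7.37 to 7.92, and the arrays at 100 to 500 mg/kg (blue) between 6.95 and 7.53.

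At the higher doses Bcar3 was lower than at the low doses. The 4 livers at 100 mg/kg gave 7.53, 6.99, 7.22 and 7.29, those at 300 mg/kg 7.32, 7.47, 7.26 and 7.09, and those at 500 mg/kg 6.95, 7.39, 7.16 and 7.32. These values span the gap between the control and the low dose livers and overlap both. The low doses exceeded the 3 higher doses by 0.36 (SE 0.078, limma adjusted p = 0.0111). This comparison uses the same 12 low dose arrays as the comparison with control. In kidney the difference between the low doses and control was 0.0013, and the liver difference exceeded the kidney difference by 0.63 (SE 0.13), which did not pass (limma adjusted p = 0.123).

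The stretch before the start of Bcar3 is shown because it is the only gene called. The 250 bases at chr2:213209657-213209906 (plus strand, GRCr8, RefSeq) hold 1 copy of CACGTG, the E-box letters bound by the clock activators, starting at position -173 from the start and given in capitals:
Bcar3: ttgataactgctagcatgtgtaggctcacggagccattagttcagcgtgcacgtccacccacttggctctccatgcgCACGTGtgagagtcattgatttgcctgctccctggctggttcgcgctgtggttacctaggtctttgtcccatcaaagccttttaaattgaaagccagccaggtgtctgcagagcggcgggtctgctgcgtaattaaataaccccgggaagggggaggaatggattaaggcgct
CACGTG reads the same on both strands and was found in the 250 bases before the start of 5.59% of 33469 RefSeq promoters. A match describes letters only.

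Bcar3 and its adaptor partners form a list of 16 genes built around Bcar3, the gene called in these data. With the low doses higher, 2 had an unadjusted limma p under 0.05, Bcar3 itself and Nedd9 (12.5%, against 3.55% of all genes). Bcar3 was thus in that count from the start, so the share is not evidence of a change in the group. On the lower side there was 1, Itgb1 (6.25%, against 3.18%). Nedd9 is a scaffold of the same family as Bcar1. Its controls gave 8.06, 7.55, 8.61, 8.21 and 8.01, and the 12 low dose livers lowest 7.83, median 8.70 and highest 9.49. The groups overlap widely (difference 0.56, SE 0.24, unadjusted limma p of 0.0287). Itgb1, the integrin beta 1 subunit, differed by -0.086 (SE 0.04) on its brightest probe set and by 0.082 on its other one, and by -0.0019 as their mean. The median over the 16 genes was -0.023.

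The genes next in order of p did not pass, and are given as values. Ms4a1 is the B cell surface protein CD20. Its controls gave 4.80, 4.80, 4.84, 5.23 and 4.89, and the low dose livers lowest 4.93, median 5.56 and highest 6.23. Of the 12 low dose livers, 11 were above the highest control, replicate 4, and 1 of them, 10 mg/kg replicate 4, was among the controls. The difference was 0.65 (SE 0.14, limma adjusted p = 0.277). Ms4a1 passed in 1 of 31 alternative fits, the one without that liver, and with any 1 array left out the adjusted limma p ran from 0.0472 to 0.633. In whole liver more B cells and more Ms4a1 RNA per cell cannot be told apart. Of the 7 measured B cell and plasma cell markers, Ms4a1 alone had an unadjusted limma p under 0.05 (14.3%, against 3.55% of all genes on the higher side). Cd79b (0.15) and Jchain (0.21) were next in order of p. Over the 7 markers the median difference was 0.064, with 6 above 0 and 1 below. The mean over the 7 markers ran from 5.18 to 5.37 in controls and from 5.13 to 5.59 in low dose livers.

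Oaf, Ddx5, Dclre1a, Serinc5, Enpp2, Ugp2, Srsf5 and Dhrs3 completed the genes with the smallest p on the higher side together with Nr1d1 and Nr1d2. Oaf gave 10.01, 9.96, 10.01, 9.99 and 10.23 in controls and lowest 9.95, median 10.52 and highest 10.99 at the low doses. Of the 12 low dose livers, 10 exceeded the highest control (difference 0.44, limma adjusted p = 0.313). Oaf passed in 1 of 32 alternative fits, the one without 1 mg/kg replicate 1, which was the lowest of the 12, and with any 1 array left out the adjusted limma p ran from 0.023 to 0.769. Enpp2, the secreted enzyme autotaxin, gave 10.70, 10.70, 10.43, 10.70 and 10.77 in controls and lowest 10.62, median 11.15 and highest 11.31 at the low doses. The difference was 0.42 (SE 0.10), and 11 of 12 low dose livers lay above every control. Ddx5, an RNA helicase, differed by 0.26, and the DNA crosslink repair nuclease Dclre1a by 0.28. Dhrs3, which reduces retinal, differed by 0.20, and Ugp2, which makes UDP-glucose, by 0.25.

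On the lower side the smallest p belonged to Ube2t, Tnfrsf4 and Fabp4, followed by Fhl2, Pgk1, Tmprss2, C5l1, Lmcd1, Kcnc2, Adm, Cdkn1a and Marcksl1. Ube2t, a ubiquitin-conjugating enzyme of DNA crosslink repair, gave 4.64, 4.71, 4.72, 5.11 and 4.92 in controls and lowest 4.00, median 4.33 and highest 4.82 at the low doses. Only 5 of the 17 arrays were above their own 40th percentile for it, which lay at 4.61 to 4.70, so most of the low dose values are near the dim end of the array. Tnfrsf4, the T cell receptor OX40, gave 6.50, 6.37, 6.43, 6.55 and 6.52 in controls and lowest 5.99, median 6.17 and highest 6.39 at the low doses. For Tnfrsf4 the groups meet at 1 liver, 0.1 mg/kg replicate 1, and 11 of 12 lay below every control (difference -0.29, SE 0.064, limma adjusted p = 0.277).

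Fabp4, a fatty acid carrier of fat cells and macrophages, gave 5.18, 5.60, 5.48, 5.43 and 6.22 in controls and lowest 3.92, median 4.63 and highest 5.60 at the low doses. Its difference was -0.90 (SE 0.21, limma adjusted p = 0.313), and 10 of the 17 arrays were above their 40th percentile. Fabp4 passed in 1 of 31 alternative fits, the one without 10 mg/kg replicate 4, its highest low dose liver, and with any 1 array left out the adjusted limma p ran from 0.03 to 0.769. Lipoprotein lipase, Lpl, differed by -0.46. Of 8 measured adipose markers, Fabp4 and Lpl were the 2 with an unadjusted limma p under 0.05 (25.0% lower, against 3.18% of all genes). The 8 markers did not share a direction: 4 were above 0 and 4 below, with a median of 0.0051. The mean over the 8 markers was 6.37 to 6.62 in controls and 6.22 to 6.53 at the low doses. The part of fat tissue on the livers in this result was not tested. Pgk1, the glycolytic phosphoglycerate kinase, gave 11.92, 11.98, 11.98, 11.94 and 11.84 in controls and lowest 11.54, median 11.70 and highest 11.89 at the low doses, a difference of -0.19.

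Cdkn1a is the cell cycle inhibitor p21. The controls gave 8.52, 8.59, 8.49, 8.78 and 8.35, and the low dose livers lowest 6.997, median 7.62 and highest 8.83. Of the 12, 10 were below every control, while 1 mg/kg replicate 1 was the highest liver of both groups. The difference was -0.79 (SE 0.21, limma adjusted p = 0.427).

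Genes of the circadian clock lay on both sides, and none passed. Of 16 measured clock genes, 4 had an unadjusted limma p under 0.05 with the low doses higher (Nr1d1, Nr1d2, Dbp and Tef; 25.0%, against 3.55% of all genes) and 3 with the low doses lower (Bmal1, Cry1 and Nfil3; 18.8%, against 3.18%). The lists of this report were chosen with earlier results of these data known, so their shares are not an independent test. The median of the 16 was -0.052, with 7 above 0 and 9 below. In all 11275 genes only 8 differed by more than 1, and Nr1d1, Dbp and Nr1d2 were among them.

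Nr1d1 encodes the repressor REV-ERB alpha. Its controls gave 6.30, 5.62, 4.50, 4.33 and 6.44, and the low dose livers lowest 5.29, median 7.001 and highest 7.77. The controls were widely spread, with replicates 3 and 4 lowest, and 11 of 12 low dose livers lay above every control, the exception being 1 mg/kg replicate 1 at 5.29. The difference was 1.47 (SE 0.38, factor 2.77, limma adjusted p = 0.427), and 15 of the 17 arrays were above their 40th percentile. Its relative Nr1d2 gave 7.76, 7.76, 6.999, 6.997 and 8.12 in controls and lowest 7.16, median 8.53 and highest 9.09 at the low doses. The same 1 mg/kg replicate 1 was again the low value, and the difference was 1.03 (SE 0.27, limma adjusted p = 0.427).

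Dbp and Tef encode output factors that bind D-box letters. Dbp gave 4.98, 4.96, 4.29, 4.60 and 5.39 in controls, and 5.12, 8.05, 5.49 and 5.47 at 0.1 mg/kg, 4.61, 8.32, 5.18 and 7.78 at 1 mg/kg and 5.55, 6.86, 7.04 and 6.36 at 10 mg/kg. The 3 livers 0.1 mg/kg replicate 2 and 1 mg/kg replicates 2 and 4 stood far above the rest, and the lowest low dose livers overlap the controls. The difference in Dbp was 1.47 (SE 0.45, limma adjusted p = 0.483), with 14 of the 17 arrays above their 40th percentile. Tef gave 7.33, 7.34, 7.17, 7.29 and 7.49 in controls and lowest 7.23, median 7.56 and highest 7.94 at the low doses, a difference of 0.28 (SE 0.11).

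The clock activator Bmal1 gave 7.02, 7.41, 7.27, 7.41 and 7.07 in controls, and 7.10, 5.70, 6.94 and 7.22 at 0.1 mg/kg, 7.34, 5.96, 7.22 and 6.38 at 1 mg/kg and 7.32, 6.68, 6.60 and 6.92 at 10 mg/kg. The 3 lowest livers were the 3 that were highest in Dbp. They were also the 3 lowest in Nfil3, a repressor that competes for D-box letters, which gave 9.03, 8.43, 9.02, 9.09 and 8.47 in controls and lowest 6.74, median 8.24 and highest 8.92 at the low doses. Differences were -0.45 for Bmal1, -0.57 for the repressor Cry1 and -0.77 for Nfil3, with unadjusted limma p of 0.031, 0.0181 and 0.00805. Clock genes without an unadjusted limma p under 0.05 included Clock (-0.087), Npas2 (-0.22), Per1 (-0.043) and Rora (-0.20), and on the higher side Cry2 (0.17) and Hlf (0.29). Other probe sets gave 0.12 and -0.057 for Clock and 0.089 for Rora. Noct, a rhythmic phosphatase, had a difference of 0.61 (unadjusted limma p of 0.0655).

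**Figure D3:**
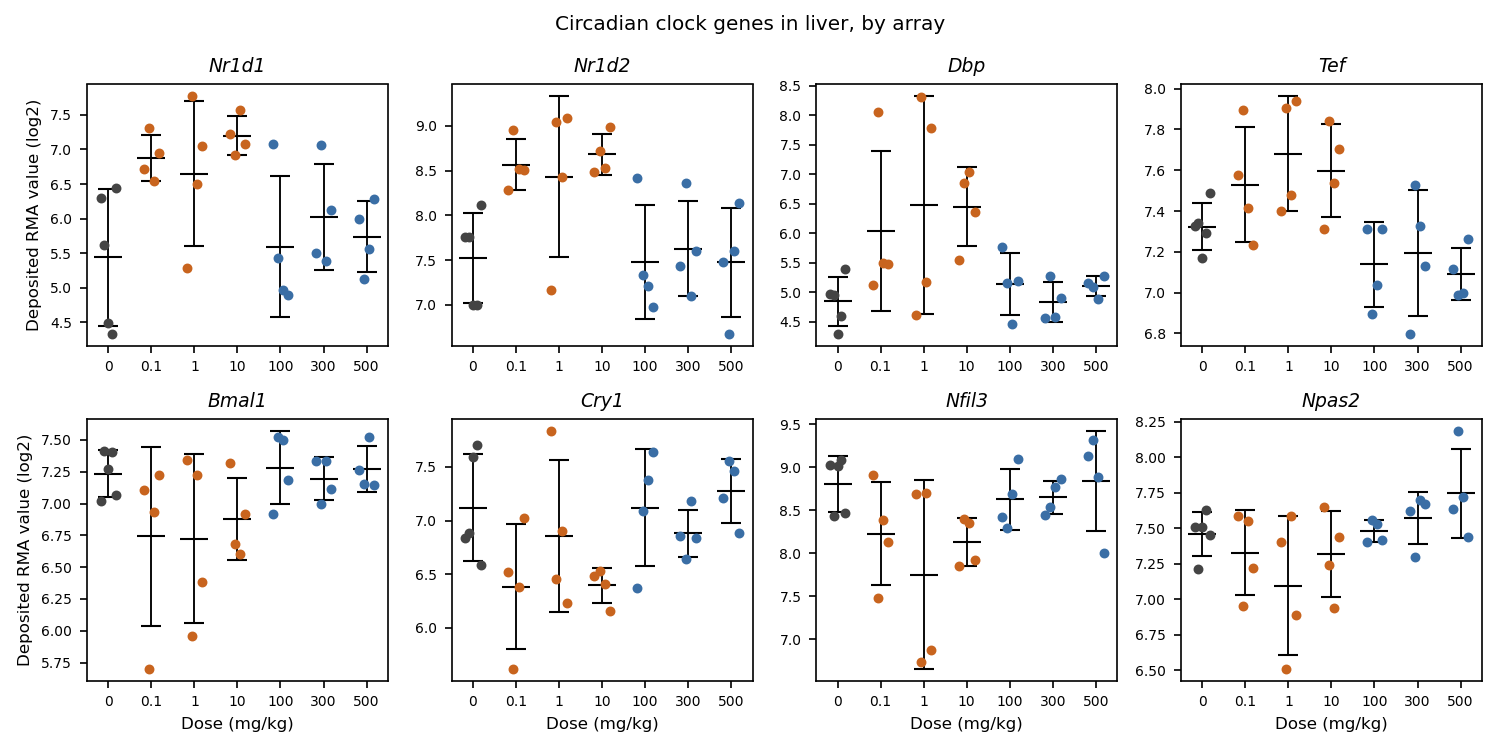
Deposited RMA values (log2) of 8 clock genes on each liver array by dose in mg/kg, with the mean and SD of each dose group (control black, low doses orange, higher doses blue). Nr1d1, Nr1d2, Dbp and Tef are higher in mean at 0.1 to 10 mg/kg than at 0 or at 100 to 500 mg/kg, with 1 mg/kg replicate 1 low in Nr1d1 and Nr1d2, while Bmal1, Cry1, Nfil3 and Npas2 are lower in mean.

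With those 3 livers left out, 3 clock genes had an unadjusted limma p under 0.05 on the higher side and 2 on the lower. Dbp was then at 0.90 (SE 0.22), Nr1d1 at 1.32 (SE 0.37), Bmal1 at -0.20 (SE 0.12) and Tef at 0.18 (SE 0.10). Without control replicate 3 or 4 the lower side held 1 gene. The kidneys of the low doses differed from control kidneys by 1.01 in Dbp, 0.39 in Tef, -0.58 in Bmal1, 0.44 in Nr1d1 and 0.35 in Nr1d2. No liver difference of these genes was shown to exceed that of kidney (adjusted limma p of the difference 0.678 for Nr1d1 and 0.898 for Dbp).

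The letters of clock factors before the starts of these genes are shown because the genes share them in textbook accounts of the loop. Of the 16 clock genes, 14 have a RefSeq promoter entry (GRCr8). A gene counts if any of its entries holds a match, while the shares over all promoters count each entry. CACGTG was found in the 250 bases before a start of 3 genes, Nr1d1, Tef and Bhlhe40, against 5.59% of all promoters. TNGGTCA, letters bound by Nr1d1 and Rora, was found on either strand before the start of 1, Bmal1, against 9.47% of all promoters. TTANGTAA, a D-box, was found before 1, Per2, against 2.04% of all promoters. Sites of 30 bases follow, the match in capitals, and none overlaps a match to another of these motifs:
Nr1d1: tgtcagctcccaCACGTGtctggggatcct
Tef: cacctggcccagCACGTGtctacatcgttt
Bhlhe40: agcgttgtccaaCACGTGagactcatgtga
Bmal1: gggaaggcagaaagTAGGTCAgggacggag
They lie at chr10:84229628-84229657 (minus strand, the second of 2 entries for Nr1d1), chr7:115206617-115206646 (plus), chr4:143174218-143174247 (plus) and chr1:176766298-176766327 (plus), and the matches start at positions -191, -198, -220 and -16. Bhlhe40 itself differed by -0.23 (SE 0.43), less than its SE. Dbp and Nr1d2 have none of the 3 motifs in this window.

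Bile acid and sterol transport genes leaned to the higher side. Of 19 measured, 18 had a difference above 0 and the median was 0.11, against 0.0019 over all genes. With an unadjusted limma p under 0.05 there were 8 on the higher side (42.1% of 19, against 3.55% of all genes) and none on the lower, and none passed the adjusted test. This list too was chosen with earlier results of these data known, so the share is not an independent test. The count was 5 without control replicate 3 and 6 without the 3 livers of highest Dbp. The part that daily rhythm has in it was not tested.

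Cyp8b1, the 12-alpha-hydroxylase that sets the share of cholic acid, had the smallest p of the group. Its controls gave 10.88, 10.90, 10.58, 10.25 and 10.65, and the low dose livers lowest 10.69, median 11.12 and highest 11.32. Of the 12, 10 were above every control, and the lowest, 1 mg/kg replicate 1, was within their range. The difference was 0.42 (SE 0.12, factor 1.34, limma adjusted p = 0.427). Cyp7a1, the rate-limiting enzyme of the pathway, gave 10.91, 10.73, 10.97, 8.76 and 11.14 in controls, where replicate 4 stood apart, and differed by 0.40 (SE 0.37). Without control replicate 4 the Cyp7a1 difference was -0.031.

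Abcg5 and Abcg8 form the pump that moves sterols into bile. Abcg5 gave 8.83, 8.41, 7.74, 8.51 and 8.21 in controls and lowest 8.34, median 8.99 and highest 9.56 at the low doses, and 8 of 12 livers lay above every control. Abcg8 gave 6.66, 6.23, 5.42, 6.48 and 5.91 in controls and lowest 6.06, median 6.86 and highest 7.83 at the low doses, with 8 of 12 above every control. Control replicate 3 was lowest and 1 mg/kg replicate 4 highest in both genes. The differences were 0.58 (SE 0.16) and 0.67 (SE 0.20), with adjusted limma p of 0.44 and 0.469.

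The pair is transcribed away from a shared stretch of chromosome 6, shown because both genes of the pump lay on the higher side. Abcg5 starts at 15717936 on the plus strand and Abcg8 at 15717730 on the minus strand, with 205 bases between the starts. Those bases, chr6:15717731-15717935 in RefSeq GRCr8, read on the plus strand toward Abcg5:
Abcg5 and Abcg8: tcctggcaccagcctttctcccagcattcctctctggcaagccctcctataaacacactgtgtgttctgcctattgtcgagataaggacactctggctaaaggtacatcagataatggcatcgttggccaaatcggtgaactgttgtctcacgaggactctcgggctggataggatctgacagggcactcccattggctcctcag
No motif was searched in it.

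Nr0b2, the repressor SHP that bile acids induce, gave 8.54, 8.05, 8.24, 8.30 and 8.70 in controls and lowest 8.32, median 8.79 and highest 9.44 at the low doses. The groups overlap, with 8 of 12 above every control (difference 0.48, SE 0.22). Abcb4, the phospholipid pump of bile, differed by 0.19. Amacr and Acox2, which work on the side chain, differed by 0.25 and 0.20, and Hsd3b7 by 0.11, all with an unadjusted limma p under 0.05.

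**Figure D4:**
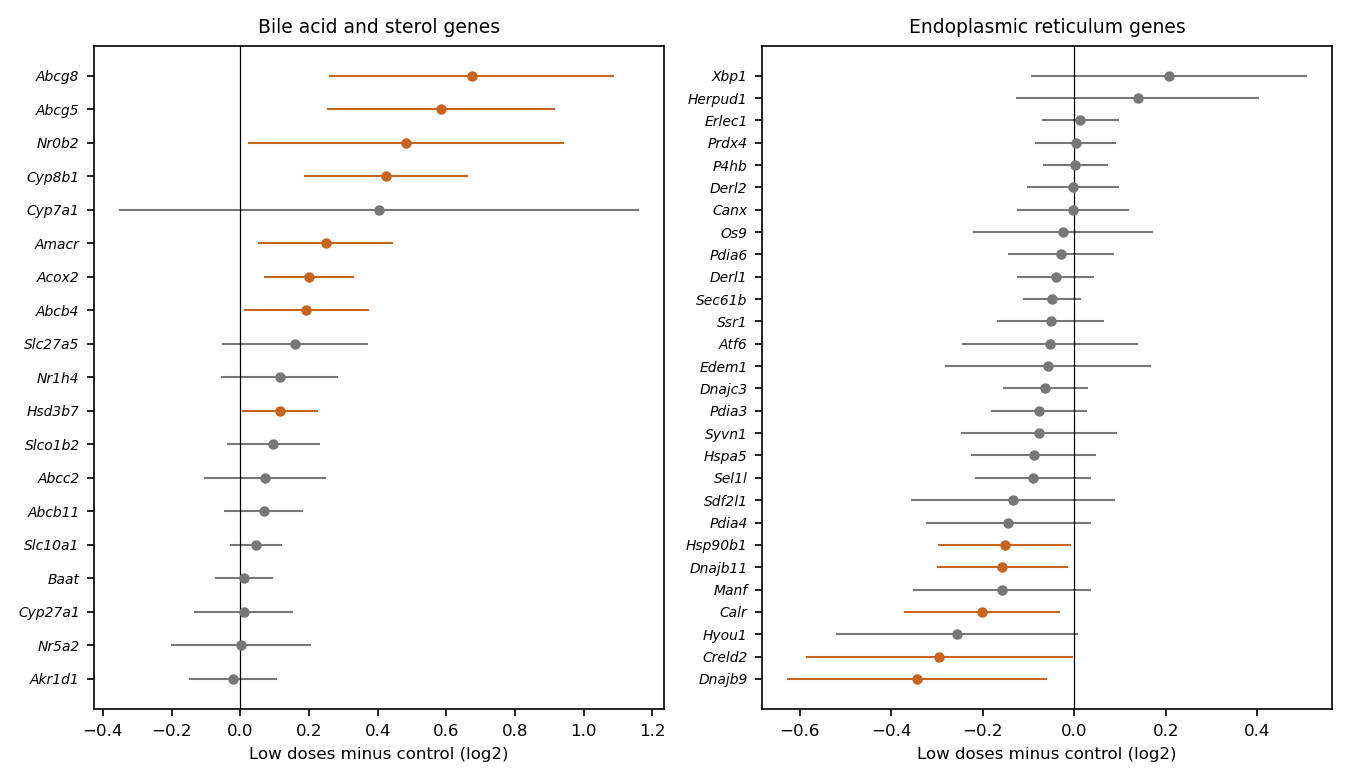
Difference between the low doses and control (log2, point) with its 95% interval (line) for 19 bile acid and sterol genes (left) and 28 genes of endoplasmic reticulum folding and degradation (right), orange where the unadjusted limma p is under 0.05. On the left 18 of 19 points lie above 0 and on the right 23 of 28 lie below 0.

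Of 28 genes for folding and degradation in the endoplasmic reticulum, 5 were above 0 and 23 below, the median was -0.060, and 5 had an unadjusted limma p under 0.05, all lower (17.9%, against 3.18% of all genes). Dnajb9, a co-chaperone, gave 9.65, 10.19, 9.55, 9.55 and 9.31 in controls and lowest 8.83, median 9.31 and highest 9.80 at the low doses. Control replicate 2 was its highest liver and the groups overlap (difference -0.34, SE 0.14). The other 4 were Creld2 (-0.29), Calr (-0.20), Dnajb11 (-0.16) and Hsp90b1 (-0.15). Control replicate 1 was the highest liver of the controls in these 4, and without it the count was 1. It was 2 without control replicate 2 or 10 mg/kg replicate 4, 3 without 0.1 mg/kg replicate 2 or 3, 1 mg/kg replicate 4 or 10 mg/kg replicate 3, and 8 without 0.1 mg/kg replicate 4. Without the 10 mg/kg group it was 0.

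Of 36 cell cycle genes, 25 were below 0, the median was -0.12, and 6 had an unadjusted limma p under 0.05 on the lower side (16.7%, against 3.18% of all genes): Ube2t, Cdkn1a, Tyms (-0.24), Cks2 (-0.26), Nusap1 (-0.27) and Top2a (-0.30). Control replicate 4 was the highest liver in Top2a, at 5.81, and in Nusap1, at 6.83. Without control replicate 4 these came to -0.17 in Top2a and -0.18 in Nusap1. The count was 10 without control replicate 5, and 3 of the 21 genes that passed a stricter filter on dim probe sets. Cdkn1a is an inhibitor of the cycle, and Ube2t acts in repair.

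Of 21 immediate early genes, which respond quickly to growth signals and stress, 4 were on the lower side at an unadjusted limma p under 0.05 (19.0%, against 3.18% of all genes). Gadd45g gave 8.16, 9.25, 8.21, 8.92 and 9.66 in controls and lowest 6.45, median 8.05 and highest 9.70 at the low doses, and within 1 mg/kg replicate 3 stood at 9.11 while the other 3 livers lay at 6.45 to 6.81. The others were Ier2 (-0.52), Dusp6 (-0.69) and Myc (-0.55). The count was 0 without 1 mg/kg replicate 2, without 1 mg/kg replicate 4, without the 1 mg/kg group, without the 3 livers of highest Dbp, or under robust eBayes on all arrays. It was 1 without control replicate 2 or 4 or 1 mg/kg replicate 1, and 2 without control replicate 5, 0.1 mg/kg replicate 4 or 10 mg/kg replicate 1.

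Genes that foreign compounds induce through CAR and PXR were mostly above 0, 19 of 22, where 50.9% of all genes were. Their median was 0.044, and the median size of a difference over all genes was 0.059. Only Abcb1a, a drug efflux pump, had an unadjusted limma p under 0.05 (4.55%, against 3.55% of all genes on the higher side). It gave 6.83, 6.98, 6.55, 6.47 and 6.74 in controls and lowest 6.76, median 7.12 and highest 7.35 at the low doses, and 9 of 12 livers were above every control (difference 0.38, SE 0.11, limma adjusted p = 0.44). None of the 7 measured targets of the aryl hydrocarbon receptor and 1 of 22 Nrf2 targets, Srxn1 (4.55%), had an unadjusted limma p under 0.05. For alcohol and aldehyde oxidation the count was 0 of 15, and for coupling of acids and alcohols it was 1 of 21, Ugp2 (4.76%). The shares of the lists with 1 such gene are near that of all genes.

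Among genes of fuel use, carnitine palmitoyltransferase Cpt1a gave 10.35, 11.15, 10.29, 10.41 and 10.85 in controls and lowest 10.36, median 11.07 and highest 11.48 at the low doses (difference 0.46, SE 0.14). Cpt1a and Acsl1 were the 2 of 31 PPAR alpha targets with an unadjusted limma p under 0.05 (6.45%, against 3.55% of all genes on the higher side). Of 31 amino acid breakdown genes, 22 were above 0 and 9 below. Those with an unadjusted limma p under 0.05 on the higher side were Tat (0.69), Gpt (0.34) and Glud1 (0.091). They are 9.68% of the list, against 3.55% of all genes. On the lower side it was Aass (-0.22), or 3.23%, against 3.18%. All 11 pericentral genes, 10 male-biased genes and 8 urea cycle genes had a difference above 0, as had 50.9% of all genes. Their medians were 0.071, 0.033 and 0.052, where the median size of a difference over all genes was 0.059. These sign counts were not repeated under another normalization. Only Glul, the glutamine synthetase of pericentral hepatocytes, had an unadjusted limma p under 0.05 (0.29, SE 0.082). It is 9.09% of the pericentral genes, against 3.55% of all genes. All 8 class II antigen presentation genes were below 0, and none had an unadjusted p under 0.05.

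**Figure D5:**
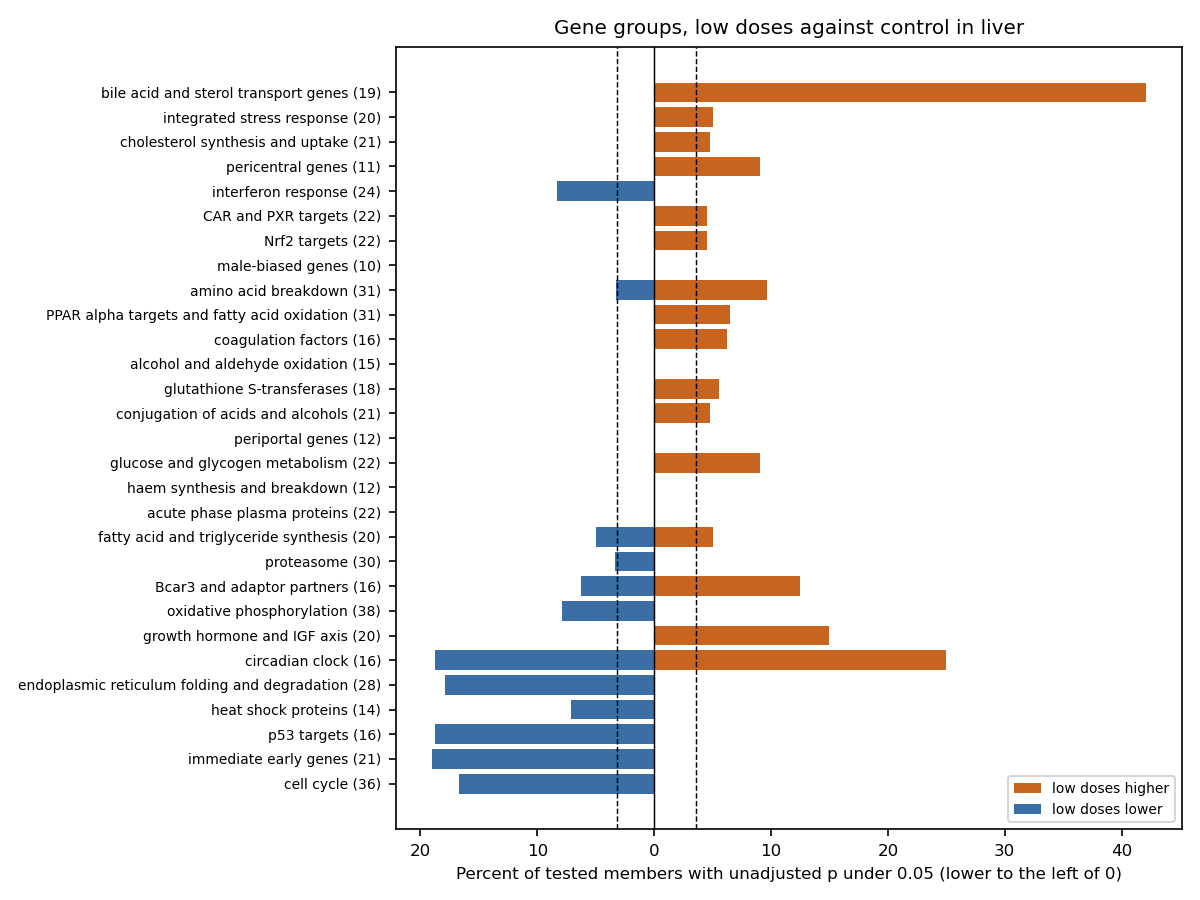
For 29 gene groups with 10 or more tested members (number in brackets), the percent of members with an unadjusted limma p under 0.05, with the low doses higher to the right (orange) and lower to the left (blue). Dashed lines mark the same over all genes, 3.55% higher and 3.18% lower. Bile acid and sterol genes reach 42.1% higher, and clock genes 25.0% higher and 18.8% lower. The groups were chosen with earlier results of these data known. The group of Bcar3 and its partners was built around the gene called in these data, so its bar on the higher side includes Bcar3 from the start.

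The other genes with differences over 1 were Trib3, Igfbp1, Inmt, Hsd17b2 and Abhd3, and none passed. Trib3, a pseudokinase of the integrated stress response, gave 7.93, 8.26, 8.51, 7.97 and 7.69 in controls and lowest 7.87, median 9.38 and highest 10.69 at the low doses, and 9 of 12 were above every control (difference 1.24, SE 0.37). Of 20 stress response genes, Trib3 alone had an unadjusted limma p under 0.05 (5.0%, against 3.55% of all genes). Igfbp1, an insulin-repressed binding protein, gave 9.30, 10.40, 9.18, 7.21 and 10.15 in controls, with replicate 4 far below, and differed by 1.16 (SE 0.46), or by 0.65 without that control. Hsd17b2, which oxidises estradiol and testosterone, gave 10.45, 10.06, 9.72, 9.60 and 10.69 in controls and lowest 9.67, median 11.29 and highest 12.40 at the low doses, with 10 of 12 above every control (difference 1.07, SE 0.29).

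Abhd3, a phospholipase, gave 8.08, 8.27, 5.09, 3.65 and 3.00 in controls and lowest 2.97, median 3.30 and highest 3.76 at the low doses. Control replicates 1 and 2 carried the difference of -2.23 (SE 0.65), since the other 3 controls were nearer the low dose livers, and 3 of the 17 arrays were above their 40th percentile. With no filter on dim probe sets another probe set stood for Abhd3, and its difference was -0.080. Inmt, a methyltransferase of small amines, gave 6.89, 8.30, 7.57, 7.45 and 6.19 in controls and lowest 7.14, median 8.40 and highest 9.50 at the low doses, a difference of 1.11 (SE 0.33).

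In 5 genes every low dose liver was above every control (0.0443% of the genes tested), and in 1 every low dose liver was below (0.00887%). Beside Bcar3 these were Bcl3, a member of the I kappa B family, with controls at 6.64 to 7.02 and low doses at 7.04 to 7.76, and Serinc5, a membrane protein that limits retroviruses, with controls at 6.71 to 6.96 and low doses at 6.97 to 7.35. Srsf5, a splicing factor, lay at 8.86 to 9.09 and 9.13 to 9.60, and neurofibromin, Nf1, a dim gene, at 4.16 to 4.54 and 4.57 to 4.88. The lower one was S100a16, a calcium-binding protein, at 8.84 to 8.97 in controls and 8.64 to 8.83 at the low doses. Differences were 0.50, 0.26, 0.35, 0.33 and -0.16, and their adjusted limma p ran from 0.427 to 0.469. The other 2 probe sets of Bcl3 differed by 0.014 and 0.14, and the mean over its probe sets by 0.22.

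No dose taken alone gave a call (0% of the genes tested at each), with 462, 657 and 721 genes at an unadjusted limma p under 0.05 for 0.1, 1 and 10 mg/kg. These 3 comparisons share the 5 control arrays with each other and with the pooled one. The moderated F test among the 3 low doses, which leaves out the control mean, called 0 genes (0%), and 323 had an unadjusted limma p under 0.05. Smallest was that of Slc39a6, a zinc transporter, with 5.01, 5.18, 4.99 and 5.32 at 0.1 mg/kg, 5.72, 5.72, 5.55 and 5.55 at 1 mg/kg and 5.30, 5.77, 5.77 and 5.96 at 10 mg/kg. Its 0.1 mg/kg livers were low but reached those of 10 mg/kg, and the adjusted limma p was 1.00. Timp1, a matrix protease inhibitor, was at 6.89, 6.53 and 6.90 in mean, lowest at 1 mg/kg, and Ints1, an Integrator subunit, was at 6.88, 6.85 and 6.60, lowest at 10 mg/kg.

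Against the 12 livers at 100, 300 and 500 mg/kg the low dose livers differed in 287 genes at an adjusted limma p under 0.05. The low doses were higher in 193 (1.71% of the genes tested) and lower in 94 (0.834%), and after quantile normalization within liver the split was 142 against 130, after cyclic loess 169 against 135. With the low doses higher there were 5 of 16 clock genes and 4 of 19 bile acid and sterol genes, against 1.71% of all genes. Of these clock genes, Cry2 had an unadjusted limma p of 0.126 against control. Hsd17b2, Cpt1a, Glul, Enpp2 and Abcb1a were on the same side. So were 3 of 36 cell cycle genes and 2 of 28 endoplasmic reticulum genes, lists that leaned lower against control. This comparison reuses the 12 low dose arrays, so it is not independent of the comparison with control.

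The low doses exceeded the higher doses by 1.03 in Nr1d2, 1.12 in Nr1d1, 1.29 in Dbp, 0.46 in Tef and 0.29 in Cry2, with adjusted limma p of 0.00783, 0.033, 0.0411, 0.00529 and 0.0489. Dbp on the higher dose arrays ran lowest 4.46, median 5.12 and highest 5.76, inside the range of control and the low part of the low doses. Cry2 was lost in 20 of 30 alternative fits, Dbp in 7 and Nr1d1 in 5, while Nr1d2 and Tef were called in all 30. For bile acid and sterol genes the excess was 0.70 in Abcg5, 0.84 in Nr0b2, 0.29 in Amacr and 0.18 in Acox2. Acox2 was lost in 8 of 30 alternative fits and Amacr in 2, while Abcg5 and Nr0b2 were called in all 30. Abcg5 on the higher dose arrays ran lowest 7.73, median 8.24 and highest 8.89, and Nr0b2 lowest 6.91, median 8.08 and highest 9.23.

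Hsd17b2 exceeded the higher dose level by 1.09 (limma adjusted p = 0.00801), and Cpt1a by 0.51 (0.00934). The smallest p of the comparison belonged to Cyp3a23-3a1, a drug-metabolising cytochrome, which was lower at the low doses: they ran lowest 12.10, median 12.53 and highest 12.64, the higher doses lowest 12.46, median 13.01 and highest 13.17, and the controls 12.40, 12.65, 12.65, 12.43 and 12.39. Control and low dose livers overlap in it. The livers at 100 mg/kg, at 12.59, 12.46, 12.54 and 12.68, lay within or near their range. Those at 300 and 500 mg/kg, at 12.85 to 13.17, were above every control and low dose liver. Over the higher doses together, low minus higher was -0.40 (limma adjusted p = 0.00018). Tm7sf2, a sterol reductase, was also lower at the low doses than at the higher ones, by 0.45, and so was Gpt, by 0.49.

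The same low doses were set against control in kidney, with 4 arrays at each dose and 5 controls, to ask whether liver and kidney differ. Of 10673 genes measured in both organs, the liver difference departed from the kidney difference in 0 at an adjusted limma p under 0.05 (0%), and 734 had an unadjusted limma p under 0.05. Ms4a1 had the smallest p, at 0.80 (SE 0.17, limma adjusted p = 0.123), followed by Bcar3. Hand2, a transcription factor of stellate cells, differed by 0.24 in liver and -0.25 in kidney, and Lmcd1, a LIM domain cofactor, by -0.40 and 0.23. Kidney itself gave 1 call at the low doses (0.00937% of the genes tested), the secreted phosphoprotein Spp2, which was at 0.33 in kidney and 0.047 in liver.

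Markers of other cell types are set beside the shares of all genes, 3.55% higher and 3.18% lower. In lists this short 1 gene makes a large share. With an unadjusted limma p under 0.05 there were 0 of 13 macrophage markers, 0 of 14 endothelial markers and 1 of 14 T and NK cell markers. The last was Tnfrsf4, on the lower side (7.14%). Stellate cell and fibroblast markers had 1 on the higher side, Hand2 (6.25%), and 2 on the lower, Col1a2 and Col4a1 (12.5%), among 16. Erythroid and cholangiocyte markers had 1 on the lower side each, Ahsp of 5 and Krt8 of 5. Of 11 hepatocyte markers, Tat alone had an unadjusted limma p under 0.05, on the higher side (9.09%).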

How the data were processed

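The deposited values are log2 signals, which the authors made with RMA per the submitters' processing notes (version not given in the sources used here), for 31099 probe sets on 58 Affymetrix rat genome arrays. The files do not say whether both organs were normalized together. Of the probe sets, 20826 carry 1 gene symbol in the array annotation and 20758 of these symbols' rows were found in the RefSeq table. Probe sets brighter than the 40th percentile of an array on 4 or more of the 29 liver arrays were kept, and the brightest kept probe set stood for a gene. Tests used limma 3.58.1 in R 4.3.3 (lmFit, then eBayes with trend, 7 dose groups, two-sided, Benjamini-Hochberg over all 11275 genes, threshold 0.05). The low doses' mean is that of 12 arrays. Array quality was tested by exact permutation over 6188 splits. The fit was also run on simulated data with independent noise for each gene, which lack the variation that real genes share. No result is drawn from that run here. Named genes are the 12 smallest p in each direction, the smallest p of each comparison and up to 4 per list, of which a selection is given; Bcl3, Nf1, S100a16, Abhd3, Inmt and Hsd17b2 were chosen after their values were seen. The members and lists were chosen with earlier results of these data known. Same-numbered arrays did not deviate together (mean r = -0.011 over 24 pairs, 0.0030 over 84 others), so arrays were not paired.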

Additional observations from a re-analysis of the deposited data

Results flagged for a closer look

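For the 91 genes examined, 364 dose groups of 4 or 5 liver arrays (control and each low dose) were searched for an array far from its neighbours, where chance flags about 1 in 20, or 18; 13 were found. In controls, replicate 4 stood apart low in Cyp7a1 (8.76, next 10.73) and high in Ms4a1 (5.23, next 4.89) and Nusap1 (6.83, next 6.42). Control replicate 3 stood apart low in Enpp2 (10.43, next 10.70) and C5l1 (9.16, next 9.43). Control replicate 1 was high in Dnajb11 (10.07, next 9.80) and control replicate 5 high in Oaf (10.23, next 10.01).

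At 0.1 mg/kg, replicate 2 was high in Dbp (8.05, next 5.49). At 1 mg/kg, replicate 3 was high in Gadd45g (9.11, next 6.80) and Ier2 (9.16, next 7.92). At 10 mg/kg, replicate 4 was low in Itgb1 (9.52, next 9.56), replicate 3 high in Lmcd1 (5.52, next 5.09) and replicate 1 low in Lpl (6.18, next 6.60).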

How the results depend on the processing

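The comparison of the pooled low doses with control was refitted under 32 alternative settings. Bcar3 kept its direction in all 32 (0.57 to 0.72) and its call in 26; of the 84 genes followed in this comparison, 81 kept their direction in all alternatives that tested them. The count of genes called was 0 with the 17 compared arrays alone and 0 without the 10 mg/kg group, and 0 to 3 when 1 array was left out: 0 without control replicate 1, 2, 3 or 4, 2 without 1 mg/kg replicate 1 and 3 without 10 mg/kg replicate 4. With 10 mg/kg alone 1 gene was called under array quality weights, and 0 to 1 with 1 array left out (1 without control replicate 5 or 10 mg/kg replicate 4). The count for higher doses minus low doses was 170 to 367 with 1 array left out, lowest without 1 mg/kg replicate 4. Liver minus kidney gave 1 call when all probe sets were tested and 0 to 1 with 1 array left out (1 without control replicate 5 or 10 mg/kg replicate 4). An alternative chosen after seeing the data left out the 3 low dose arrays with the highest Dbp: 0 genes were called for the pooled doses (Bcar3 0.59, limma adjusted p = 0.0612), 3 for 10 mg/kg and 153 for higher doses minus low doses.

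Signs turned for Per2 (0.16 with the mean over probe sets), and with 1 array left out for Bhlhe40 (-0.40 to 0.071) and Cyp7a1 (-0.031 to 0.56), in both only without control replicate 4. With the replicate number as a block, which the check of pairing did not bear out, 1 gene was called for the pooled doses, 226 for higher doses minus low doses, and the cell cycle genes with an unadjusted limma p under 0.05 on the lower side were 11. The fit of the low doses as 1 group of 12 gives no value for single doses, for differences among them or against the higher doses. Signal over background limits dim genes such as Ube2t, Nf1 and Abhd3. The causes of these shifts were not tested.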
